A study of Arabidopsis thaliana with 4 samples.

Results

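PHE1, PHE2 and AGL23 are 3 genes for type I MADS-box transcription factors that share 1 bin of 100 kb in the Arabidopsis contact maps, at 24200 to 24300 kb of chromosome 1 (TAIR10). They are 3 of 37887 genes in the gene table used for names, and the bin holds 43 genes. Their loci are AT1G65330 for PHE1, AT1G65300 for PHE2 and AT1G65360 for AGL23. The maps resolve contacts only to 100 kb, so a value of the bin belongs to all 43 genes and cannot be assigned to one of them. The 6 neighbouring bins, 3 on each side, served as controls. The bin was selected on its endosperm values in these maps, namely its many strong long-range contacts and its extra contact counts. Those values are therefore a description and carry no test.

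Type I MADS-box proteins bind DNA in pairs and act mainly in the female gametophyte and in the endosperm, the nutritive tissue that grows beside the embryo. PHE1 is an imprinted gene expressed mainly from the paternal copy, and the Polycomb complex of the seed, with MEA and FIS2, keeps the maternal copy silent. PHE2 is a close sequence relative of PHE1 a short way along the same chromosome, and AGL23 acts in development of the female gametophyte and embryo.

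The maps came from in situ Hi-C, in which crosslinked chromatin is cut and religated so that pieces of DNA near each other in the nucleus are sequenced as 1 molecule. Endosperm and leaves of 4-week-old plants, both of ecotype Col-0 with the genotype Col_wt x Col_wt, were each sampled in 2 replicates, and the labels give no age for the endosperm. The deposited maps pool both replicates, so each tissue is 1 measurement with no replicate spread and no p-value. The published study of these maps is known, as background, to have purified endosperm nuclei that carried a biotin tag. In the usual form of that method for endosperm, the PHE1 promoter drives the tagging proteins, and the tagged protein reaches the nuclear envelope through a domain of RANGAP1, a regulator of nuclear transport. The labels name no such construct, and the plants' inserted DNA was not analysed here.

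The leaf map held 18557893 contacts and the endosperm map 25033672. The median bin had 26463 contacts in leaf and 36423 in endosperm, and the median pair of bins on different chromosomes 16 and 21. Each interval below is an exact 95% Poisson interval on the recovered contact count. It covers counting error only, since sequenced reads are not independent molecules and pooled replicates add spread of their own.

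The bin of PHE1, PHE2 and AGL23 had many more contacts in endosperm than its neighbours, and in leaf a number inside their range but above their mean. In leaf it had 28430 contacts, beside 22603 to 28741 in the 6 control bins. In endosperm it had 75040, beside 30552 to 41005. The leaf count lay inside the range of the controls and the endosperm count far above it. Against the control mean, over the 1168 bins used, the ratio was 1.11 in leaf (1.1 to 1.13) and 2.14 in endosperm (2.12 to 2.15). Balancing, the correction that gives every bin the same total, hides such differences, so these values are recovered counts.

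Set against the median bin of each tissue, the bin's total was 1.07 in leaf and 2.06 in endosperm, where it ranked at 12 of 1168. The endosperm value was 1.92 times the leaf value, and over all bins 7 of 1168 (0.599%) reached 1.5 times. The other 6 were 4 bins of chromosome 2, which start at 0, 3200, 3300 and 3400 kb, and 2 bins of chromosome 3, which start at 14100 and 14200 kb. In the control bins the endosperm value was 0.976 to 1.04 times the leaf value. The bin of the 3 genes was the one of the 7 on chromosome 1.

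The extra endosperm contacts were mostly with other chromosomes. Contacts with other chromosomes numbered 50527, beside 17211 to 24029 in the controls, a ratio of 2.51 (2.48 to 2.54). Contacts with chromosome 1 beyond 2 Mb numbered 14260, beside 6510 to 8819, a ratio of 1.90 (1.86 to 1.93). Contacts at 0.1 to 2 Mb numbered 6016, beside 4601 to 5010, a ratio of 1.25 (1.21 to 1.28). Contacts inside the bin numbered 4152, beside 2054 to 3197, a ratio of 1.58 (1.53 to 1.64). The excess was thus smallest, as a ratio, for local contacts. In leaf the same ratios ran from 1.08 for chromosome 1 beyond 2 Mb to 1.23 inside the bin, where 2654 contacts stood beside 1818 to 2397.

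As a share, contacts with other chromosomes were 67.4% of the bin's contacts in endosperm, above the 55.8% to 58.6% of its 6 neighbours. In leaf the share was 62.8%, within the 62.2% to 64.1% of the neighbours. Local contacts were 8.03% of the bin's endosperm contacts, below the 12.0% to 15.5% of the neighbours, and in leaf 10.3%, within their 8.63% to 11.4%.

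Among the chromosomes, the endosperm ratio to the control mean was 2.70 (2.65 to 2.75) for chromosome 5, 2.58 (2.52 to 2.63) for chromosome 2, 2.45 (2.40 to 2.50) for chromosome 3 and 2.26 (2.20 to 2.31) for chromosome 4. In leaf the 4 ratios lay between 1.08 and 1.14. All 4 chromosomes were thus raised in endosperm, chromosome 5 most and chromosome 4 least.

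Local contacts before balancing followed the neighbours at the shortest distances. At 0.1 Mb, the mean over both sides was 552 contacts in endosperm, inside the 523 to 643 of the controls, and at 0.2 Mb it was 286, inside 251 to 306. At 1 Mb it was 125, above 58.5 to 95, and at 2 Mb it was 75, above 48.5 to 72. The excess over the control mean was absent at 0.1 Mb and stood at 46.6 contacts per pair at 1 Mb. In leaf the bin had 369.5 contacts at 0.1 Mb, inside 257 to 373, and 27.5 at 2 Mb, inside 20.5 to 36.

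**Figure D1:**
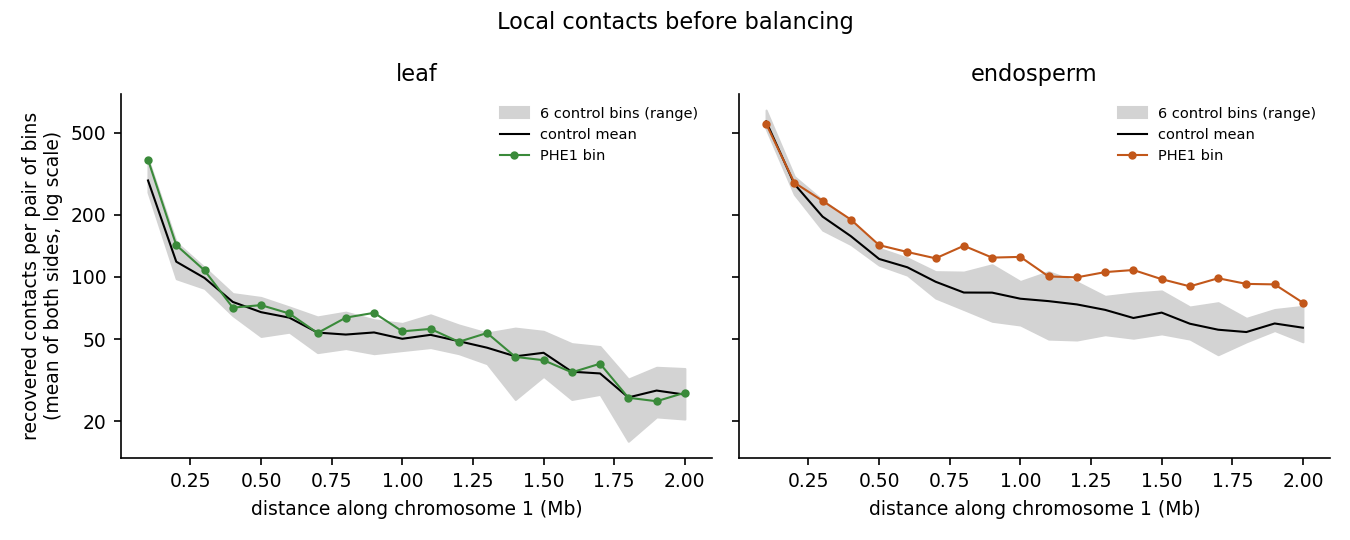
Recovered contacts per pair of bins (log scale) against distance along chromosome 1 (Mb), in leaf and endosperm, for the bin of PHE1, PHE2 and AGL23 (coloured points), the mean of the 6 control bins (black line) and their range (grey). In endosperm the bin starts among the controls, at 552 contacts at 0.1 Mb, and lies above them at 1 Mb with 125, while in leaf it stays near them.

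On the balanced scale the same local contacts look weaker, because every contact of the bin is divided by a factor that grows with its total. Local signal over that expected from distance was 0.711 in endosperm, below the 0.952 to 1.14 of the 6 controls, a ratio to their mean of 0.681 (0.663 to 0.701). Without balancing the ratio was 1.25, so its direction turned with the scale. In leaf the signal was 0.981, within the 0.888 to 1.10 of the controls, and the ratio 0.968 (0.930 to 1.01) did not differ detectably from 1 at this depth.

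Distant contacts, those with other chromosomes or over 2 Mb away on chromosome 1, were expressed as a level. The level is the balanced signal over the mean of all pairs on different chromosomes or, on chromosome 1, over the mean at the same distance. The bin had 1127 distant partners, with a median level of 0.963 in leaf and 1.05 in endosperm. In endosperm 19 of them had a level of at least 2, which is 1.69% of its pairs, beside 0.351% of all distant pairs of the map. The 6 control bins had 0 to 5 such partners. The contrast between the 19 and this background is part of what chose the bin. Of all 1168 bins, 9 had more such partners than the bin of PHE1.

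In leaf 14 partners reached a level of 2, or 1.24%, beside 0.328% of all distant pairs of that map. The control bins had 12 to 17, so the leaf count was that of the whole segment. All 14 were on chromosome 2. The endosperm partners lay on chromosomes 2, 3 and 5. The partners nearest the limit in endosperm had levels of 2.03 inside it and 1.98 outside it, and in leaf 2.04 and 1.98.

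**Figure D2:**
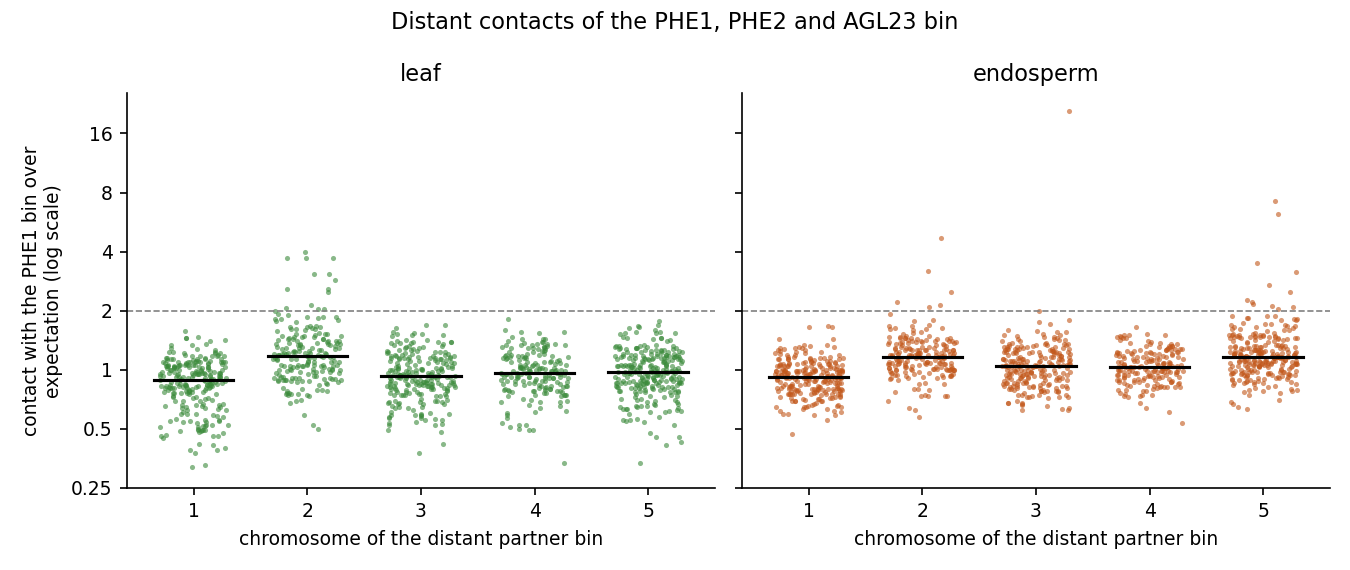
Level of each of the 1127 distant partners of the bin of PHE1, PHE2 and AGL23 (contact over expectation, log scale) by partner chromosome, in leaf and endosperm. Each point is a 100 kb bin, black bars are medians and the dashed line is a level of 2; the endosperm points stand highest on chromosomes 3, 5 and 2 (20.8, 7.26 and 4.70), and all leaf points above the line are on chromosome 2.

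The highest endosperm level of the bin was with a single bin of chromosome 3 at 23300 to 23400 kb, close to the end of that chromosome. The pair had 1012 contacts in endosperm, beside 19 to 40 for the 6 control bins with the same partner. In leaf it had 15 contacts, beside 7 to 32. The endosperm count was therefore apart from every control, and the leaf count was among them. The level was 20.8 in endosperm (19.5 to 22.1) and 0.760 in leaf (0.425 to 1.25), a ratio of 27.3 (16.5 to 49.0).

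The level fell to near 1 in the adjacent bins. The bin just below, from 23200 kb, had a level of 1.14 (0.858 to 1.49), beside 0.572 to 0.962 in the controls, and the one above, from 23400 kb, 1.28 (0.920 to 1.74), beside 0.467 to 1.37. Over the 11 used bins within 1 Mb the mean level was 1.15 in endosperm, above the 0.801 to 1.01 of the controls. The next strongest partner of the chromosome 3 bin on another chromosome had a level of 3.07, from 19600 kb of chromosome 2, near the end of that chromosome. In leaf, 793 bins of other chromosomes stood above that of PHE1 as partners of the chromosome 3 bin, and in endosperm 0 did. The chromosome 3 bin itself had no large gain in total, at 1.09 times the median bin in leaf and 1.12 in endosperm.

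RANGAP1 lies in this chromosome 3 bin, 1 of its 37 genes. Other listed genes have promoters that have been used in nuclei-tagging constructs. Of these, the bin of ACT2, a widely expressed actin gene, had an endosperm level of 1.40 (1.08 to 1.78) with the bin of PHE1. The controls had 0.833 to 1.30, so it was above each of them, as were 20.2% of all distant bins in endosperm. The bin of ADF8, an actin depolymerizing factor, had 0.841 (0.604 to 1.14), beside 0.774 to 1.40. Their leaf levels were 0.956 and 1.11. In such maps, reads from an inserted copy of a gene are counted at the bin of the native gene. Whether inserted copies of PHE1 and RANGAP1 sequence account for this contact was not tested.

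The second endosperm region was broad and lay on chromosome 5. It covered 11 bins at 24400 to 25500 kb with 1632 contacts, beside a control mean of 239. Its highest bin, at 24700 to 24800 kb, had 332 contacts in endosperm, beside 17 to 25 in the controls, and 22 in leaf, beside 12 to 24. The level there was 7.26 (6.50 to 8.09) in endosperm and 1.18 (0.742 to 1.79) in leaf, a ratio of 6.14 (3.99 to 9.93). The bin next to it, at 24600 to 24700 kb, had a level of 6.23 (5.55 to 6.98).

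From this top the level declined over the nearest bins on both sides. It was 3.49 in the bin from 24500 kb and 2.70 in that from 24400 kb on one side, and 3.15 from 24800 kb and 2.49 from 24900 kb on the other. Further out it was uneven. On the upper side it was 2.03 from 25000 kb and 2.27 from 25300 kb, then 1.15 from 25500 kb. On the lower side it was 1.48 from 24300 kb and 2.20 from 24200 kb. The mean level was 2.22 within 1 Mb, 1.42 at 1.1 to 3 Mb and 1.27 at 3.1 to 6 Mb. In the controls the means at these distances were 0.912 to 1.13, 0.865 to 1.03 and 0.884 to 1.05. In leaf the bin of PHE1 lay at 1.00 to 1.02, within the ranges of its controls. In endosperm it was above every control at each of these distances, and also at 6.1 to 30 Mb, with 1.11 beside 0.935 to 1.01. The same held that far from the highest bins of the other chromosomes, with 1.06 beside 0.929 to 0.983 on chromosome 3 and 1.12 beside 0.935 to 1.01 on chromosome 2, so it was not particular to the chromosome 5 region. On chromosome 2 the leaf mean that far was also above the controls, at 1.51 beside 1.38 to 1.48. That stretch takes in all the leaf partners of the bin, described below. Among them is 1500 to 2500 kb, where the leaf level was 3.17, beside 2.5 to 2.86 in the controls. On chromosomes 3 and 5 the leaf means that far lay within the ranges of the controls.

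Of the partners of the highest chromosome 5 bin on other chromosomes, that of PHE1 ranked first, and the next had a level of 2.18. In the bin from 24600 kb, the immediate neighbours of the bin of PHE1 were also raised in endosperm. The neighbour just below had 49 contacts and a level of 2.00 there, and the one just above had 67 contacts and a level of 3.24. From 24700 kb they had 20 and 25 contacts and levels of 0.866 and 1.28. A separate single bin of chromosome 5, at 24200 to 24300 kb, reached a level of 2.20 (1.81 to 2.66) in endosperm and 1.05 in leaf. The regions on chromosome 5 hold 369 and 37 genes in the gene table.

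The third endosperm region lay on chromosome 2 at 15100 to 15600 kb, over 5 bins, with 641 contacts beside a control mean of 109. Its highest bin, at 15300 to 15400 kb, had 203 contacts in endosperm, beside 10 to 31 in the controls, and 20 in leaf, beside 16 to 23. The level was 4.70 (4.08 to 5.39) in endosperm and 1.13 (0.693 to 1.75) in leaf, a ratio of 4.15 (2.61 to 6.93). This highest bin stood apart from the controls in endosperm and among them in leaf.

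The chromosome 2 region fell off unevenly. The level was 3.18 from 15400 kb and 2.48 from 15500 kb on the upper side, and 2.14 from 15200 kb and 2.22 from 15100 kb on the lower side. In the bin from 15200 kb the highest control had 2.15, so 4 of the 5 bins were above every control. Of all distant bins in endosperm, 20.2% were. The 5 bins were picked for their level with the bin of PHE1, so their place above the controls carries no test. The mean level was 1.59 within 1 Mb, 1.20 at 1.1 to 3 Mb and no lower, at 1.20, at 3.1 to 6 Mb. In the controls the means were 0.874 to 1.1, 0.954 to 1.08 and 0.916 to 0.995. In leaf the means within 1 Mb and at 1.1 to 3 Mb were 0.985 and 1.08, below the 1.09 to 1.31 and 1.12 to 1.25 of the controls, and over the 5 bins of the region 1.03, below 1.04 to 1.18. For the highest bin, 1 partner on another chromosome stood above the bin of PHE1. It was the bin from 8700 kb of chromosome 4, with a level of 14.9 in endosperm and 19.7 in leaf, a contact shared by both tissues.

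**Figure D3:**
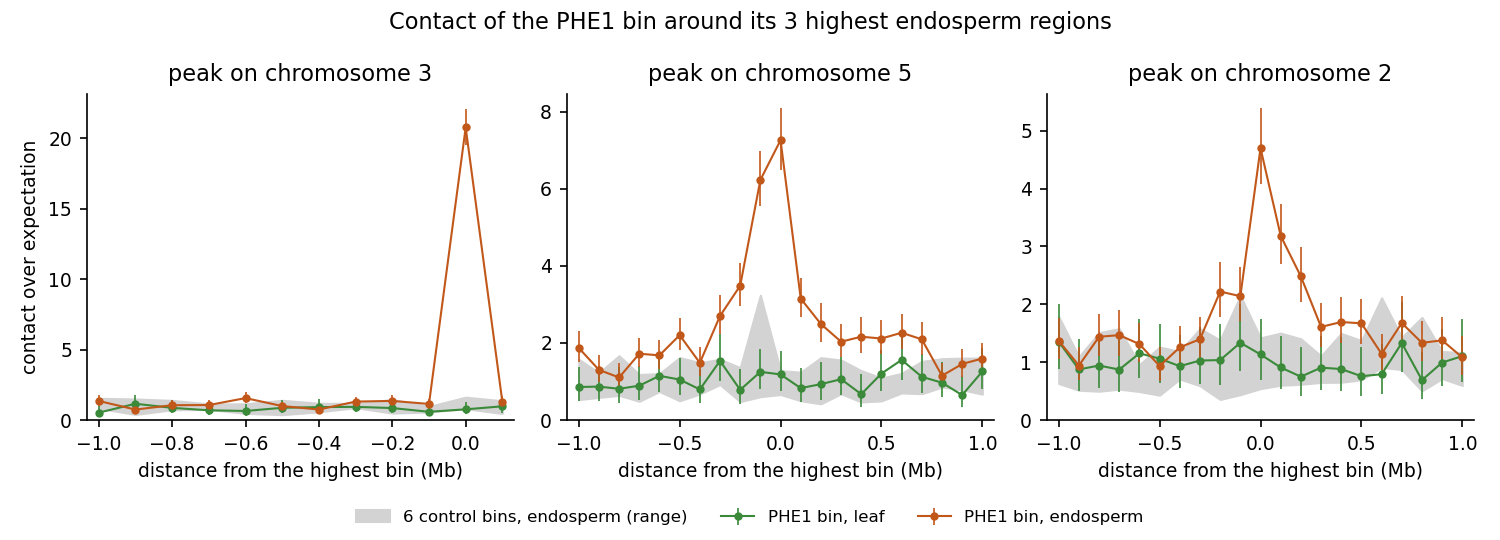
Contact over expectation of the bin of PHE1, PHE2 and AGL23 against distance (Mb) from the highest bin of its 3 strongest endosperm regions, on chromosomes 3, 5 and 2, in endosperm (orange) and leaf (green), with 95% counting intervals; grey is the range of the 6 control bins in endosperm. The chromosome 3 peak (20.8) drops to 1.14 and 1.28 in the adjacent bins, while those on chromosomes 5 (7.26) and 2 (4.70) decline over several bins, and the leaf values stay near 1.

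The last endosperm partner, at 3200 to 3300 kb of chromosome 2, was raised in both tissues. It lies where the reference genome holds an inserted copy of mitochondrial DNA. Its level was 2.08 (1.84 to 2.35) in endosperm and 1.98 (1.55 to 2.50) in leaf, a ratio of 1.05 (0.803 to 1.38). The controls had 0.934 to 1.45 in endosperm and 0.822 to 1.38 in leaf, so the bin of PHE1 was above its neighbours here in both tissues. The partner is a bin of high total, 3.62 times the median bin in endosperm, and one of the 7 bins that reached 1.5 times their leaf total. The bin next to it, at 3300 to 3400 kb, was a leaf partner with a level of 2.05 (1.66 to 2.5), beside 1.15 to 1.44 in the controls, and had 1.93 (1.74 to 2.14) in endosperm, beside 0.897 to 1.35.

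The 3 distant bins had no raised contact with each other. The chromosome 3 bin with the chromosome 5 bin had 31 contacts in endosperm and a level of 1.23 (0.836 to 1.75), and 21 contacts and 1.12 in leaf. With the chromosome 2 bin it had 23 contacts and a level of 0.966 (0.612 to 1.45) in endosperm. The chromosome 5 and chromosome 2 bins had 20 contacts and a level of 0.896 (0.547 to 1.38). In each of these pairs the interval held 1, so the raised endosperm contacts ran from the bin of PHE1 to each partner and were not seen between partners.

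The strong partners held a small part of the extra contacts. The 5 endosperm regions, 19 bins in all, had 3198 contacts more than the control mean, 8.02% of the bin's whole excess of 39858. The 19 were 1.69% of the distant bins, so they held more of the excess than their share by number. The chromosome 5 region of 11 bins held 3.49%, the chromosome 3 bin 2.48% and the chromosome 2 region of 5 bins 1.34%. Outside the 19, the other 1108 distant bins held 33946 contacts of excess. Every one of the 1127 distant partners had more contacts with the bin than with the control mean in endosperm, by a median of 26.8 contacts and a median ratio of 2.23. In leaf 677 of 1127 did, with a median of 1.5 contacts and a median ratio of 1.09.

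The largest counts of excess on single bins, other than the regions above, were with bins of very high total. The bin of chromosome 3 from 13500 kb had 587 contacts more than the control mean, that of chromosome 4 from 3900 kb had 580 and that of chromosome 5 from 11700 kb had 383. Their totals were 22.7, 26.5 and 17.1 times the median bin. Their endosperm levels with the bin of PHE1 were 1.41, 1.32 and 1.34, and their leaf levels 1.08, 1.13 and 1.06. These partners therefore ranked high by count. Their endosperm levels were above the median of 1.05 of all distant bins but below the limit of 2.

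**Figure D4:**
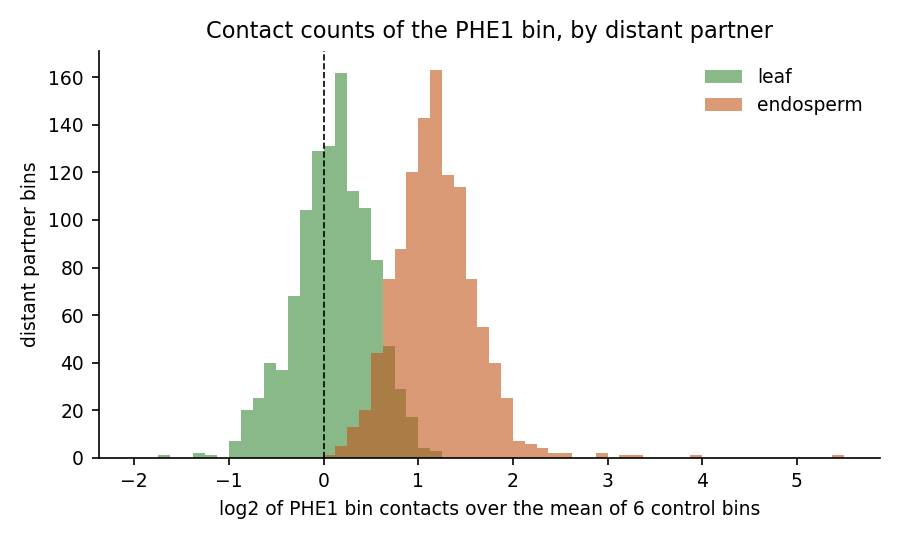
Number of distant partner bins by the log2 of their contacts with the bin of PHE1, PHE2 and AGL23 over the mean of their contacts with the 6 control bins, before balancing. The whole endosperm distribution is shifted (median ratio 2.23, above 1 for 1127 of 1127 bins), and the leaf distribution lies near 0 on this scale (median ratio 1.09).

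In leaf most distant partners of the bin were shared with its segment of chromosome 1. The 14 partners formed 4 regions of chromosome 2, of 10, 2, 1 and 1 bins. They were chosen on their level with the bin of PHE1 itself, which favours values above the controls. In the region of 10 bins, at 1500 to 2500 kb, the mean level was 3.17, beside 2.5 to 2.86 in the controls, so all 7 bins were raised and that of PHE1 stood highest. In endosperm the level there was 1.07, within 0.859 to 1.18. The highest leaf partner, at 2100 to 2200 kb, had 63 contacts and a level of 3.96 (3.05 to 5.07), beside 2.36 to 3.49 in the controls. On the other side, at 500 to 1500 kb, the leaf level was 1.11, beside 0.864 to 1.07.

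The region of 2 leaf bins, at 2700 to 2900 kb, had a mean level of 2.10, within the 1.91 to 2.52 of the controls, and in endosperm 1.20, above their 0.732 to 1.02. The 2 single bins were above every control in leaf, as were 11.4% of all distant bins there. Both were picked for a level of at least 2 with the bin of PHE1, which favours such a place. One was the bin of the mitochondrial insertion from 3300 kb described above. The other, at 4300 to 4400 kb, had 28 contacts and a level of 2.04 (1.36 to 2.95), beside 0.733 to 1.59, and in endosperm a level of 1.41 (1.03 to 1.89), beside 0.360 to 1.28. The leaf partners at 1500 to 2500 and 2700 to 2900 kb were thus common to the 7 bins.

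Bins of other seed and chromatin genes were compared to ask whether the bin of PHE1 met them more than it met other bins. Across 4 lists of 34 genes in 32 distant bins, the endosperm level with the bin of PHE1 ranged from 0.643 to 1.48 with a median of 0.990, beside 1.05 over all 1127 distant bins. None of the 32 bins reached a level of 2 in endosperm, and none in leaf, where the range was 0.501 to 1.86 and the median 0.95. At background shares of 0.351% and 0.328%, a count of 0 among 32 bins says little. In endosperm 7 of the 32 were above all 6 controls and 2 below all of them, beside 20.2% and 5.59% of all distant bins. In leaf 2 were above and 5 below, beside 11.4% and 12.5%.

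Type I MADS-box genes lay in 11 bins with a median level of 1.17 in endosperm and 0.885 in leaf. The highest was that of AGL62, which prevents early endosperm cellularization, with 64 contacts and a level of 1.48 (1.14 to 1.90) in endosperm and 14 contacts and 0.794 (0.434 to 1.33) in leaf. AGL62 lies in the bin at 24300 to 24400 kb of chromosome 5, between bins with levels of 2.20 and 2.70 on the flank of the broad region there, and its level was inside the 0.676 to 1.49 of the controls. AGL80, which pairs with AGL61 in the central cell from which endosperm forms, had 1.17 (0.871 to 1.54), and AGL61 had 1.17 (0.858 to 1.56). The bins of AGL61 and AGL40 were above every control, AGL61 beside 0.489 to 1.06 and AGL40 with 1.23 beside 0.654 to 1.17. AGL34, AGL35 and AGL36 share 1 bin, which had 0.918.

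Polycomb and DNA methylation regulators lay in 8 bins with median levels of 1.04 in endosperm and 1.07 in leaf. MEA, the Polycomb methyltransferase of the seed, had 0.774 (0.551 to 1.06) in endosperm, FIS2, a zinc finger protein of the same complex, 1.26 (0.959 to 1.62), and FIE, its WD40 subunit, 1.08 (0.787 to 1.43). DME, the DNA glycosylase that removes methylation in the central cell, had 0.812, and MET1, the maintenance DNA methyltransferase, 1.00. The highest leaf levels of all lists were here, 1.86 (1.27 to 2.62) for CLF and 1.81 (1.27 to 2.50) for SWN, both Polycomb methyltransferases. Both were above every control in leaf. In endosperm SWN, with 1.45 (1.13 to 1.82) beside 0.914 to 1.24, and FIS2, beside 0.709 to 1.19, were above every control. FIS2 lies within 1 Mb of the highest chromosome 2 bin. So does IKU1, of the list of seed size and endosperm regulators, which had 0.933 in endosperm, inside the 0.429 to 1.26 of the controls.

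The other imprinted genes lay in 8 bins with median levels of 0.978 in endosperm and 0.915 in leaf. HDG3, a paternally expressed homeodomain gene, had 1.43 (1.10 to 1.83) in endosperm, and MPC, a maternally expressed gene, 1.30 (0.995 to 1.67). HDG3, beside 0.324 to 1.36, MPC, beside 0.760 to 1.12, and FWA, a maternally expressed homeodomain gene with 1.16 beside 0.511 to 1.08, were above every control. PEG2, a paternally expressed gene on chromosome 1, had 0.719 (0.543 to 0.933), below the 0.814 to 1.48 of the controls, and YUC10, an auxin synthesis gene near it, 0.797. Seed size and endosperm regulators lay in 5 bins with median levels of 0.932 and 1.06. ZOU, a bHLH factor that acts in endosperm breakdown, had 0.643 (0.469 to 0.860), below the 0.895 to 1.07 of the controls, and its partner ICE1 0.932. The levels of these lists spread around those of all distant bins, with no group of them past the limit of 2.

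**Figure D5:**
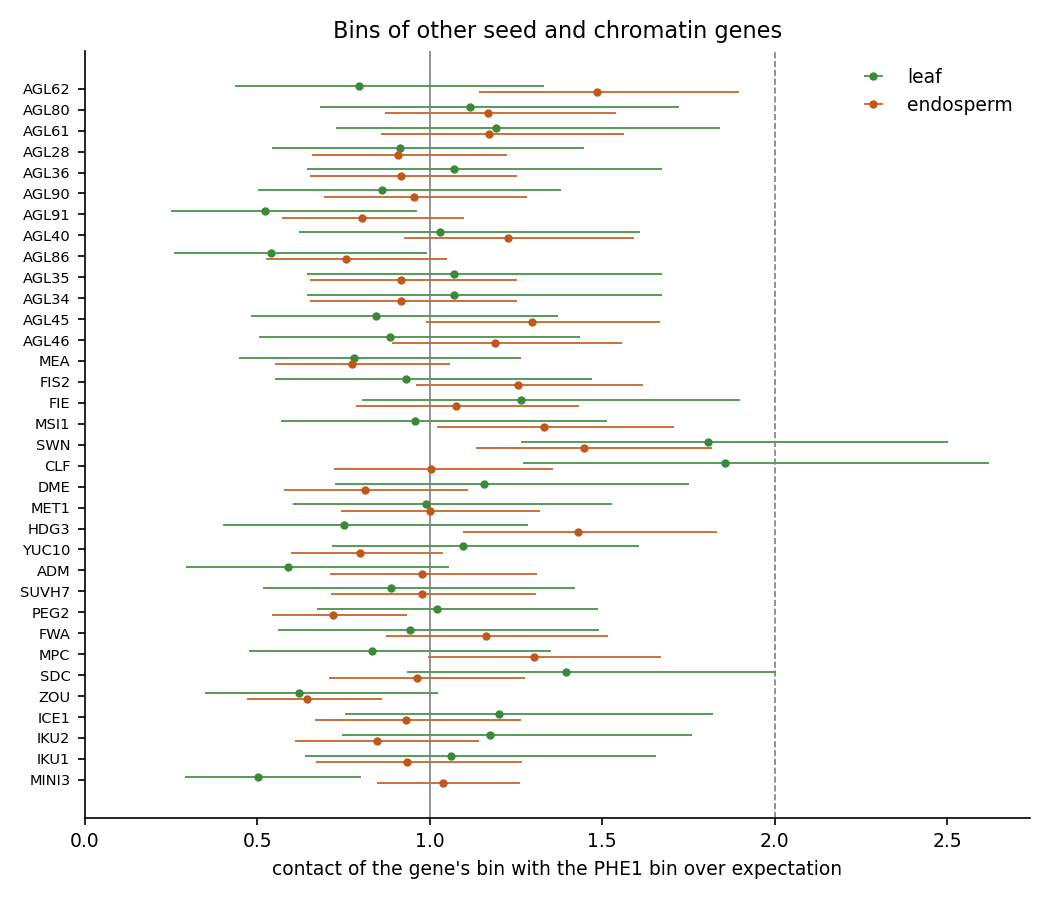
Level of the bin of each listed gene with the bin of PHE1, PHE2 and AGL23 (contact over expectation) in leaf and endosperm, with 95% counting intervals; the solid line is a level of 1 and the dashed line a level of 2. No gene's bin reaches 2 in either tissue, and the highest in endosperm is that of AGL62 at 1.48.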

How the data were processed

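Per the submitters' processing notes, the authors aligned reads to TAIR10 through HiC-Pro 2.9.0, using Bowtie2. The deposited values are contact signal per pair of bins, balanced by iterative correction, in 1 matrix per tissue and bin size (100 and 200 kb), with replicates 1 and 2 pooled, as the matrix names state. For the restriction enzyme, read filters and balancing settings, nothing is given in the sources used here.

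Each balanced value is a whole count divided by 1 factor per bin, so counts were recovered. In both tissues 100% of pairs came out whole within 0.01. Bins with values for at least 50% of the others in both tissues were used (1168 of 1193). Genes were placed in bins from a TAIR10.1 gene table. Intervals are exact 95% Poisson intervals, and those of ratios come from the conditional binomial (Clopper-Pearson). The recovery was tested on simulated data. Python 3.11.15, numpy 2.4.6 and scipy 1.17.1 were used.

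The bin, the lists and the measures were chosen with earlier results of these data known. Named genes were the 3 members and the listed seed, chromatin and construct genes, and named regions were up to 10 per tissue with the highest level. Alternatives changed the expectation, balancing, limits, controls, bin filter and bin size.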

Additional observations from a re-analysis of the deposited data

Results flagged for a closer look

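The contact of the bin of PHE1, PHE2 and AGL23 with 23300 to 23400 kb of chromosome 3 lay on opposite sides of the control mean in the tissues. Over the mean count of the 6 control bins it was 0.909 in leaf, from 15 contacts, and 43.1 in endosperm, from 1012 contacts. The leaf value has no settled direction, since 15 contacts lie within the 7 to 32 of the controls, and with 1 pooled map per tissue the difference was not tested.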

How the results depend on the processing

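No paired analysis was possible because the replicates of each tissue were deposited as 1 pooled matrix, and no replicate could be left out. The count of distant partners at a level of 2 was 19 in endosperm and 14 in leaf. It was 83 and 68 at a limit of 1.5, 7 and 6 at a limit of 3, and 6 and 6 among the fewer bins of the 200 kb matrices. It was 13 in both tissues when the expectation came from the interchromosomal totals of each pair, and 17 and 13 without balancing. The share over all distant pairs was computed at the main setting only, 0.351% in endosperm and 0.328% in leaf. The counts at the other settings therefore have no background beside them and cannot be read as high or low. The contact count over control bins was 2.23 in endosperm and 1.14 in leaf against the 2 immediate neighbours alone. It was 2.06 and 1.07 against the median bin, and 2.18 in endosperm without contacts inside the bin. The local ratio in endosperm was 0.641 against those 2, 0.627 at 0.1 to 1 Mb, and 1.25 without balancing, where its direction turned because the bin's larger total is no longer divided out. The leaf local ratio was 1.11 without balancing. For the highest endosperm bins of chromosomes 3, 5 and 2, the alternatives were chosen after the data were seen. With the expectation from the interchromosomal totals, their levels were 17.5, 6.54 and 4.06. Without balancing, each level lay between this value and the main level. Contacts over the control mean, a ratio of counts and not a level, were 43.1, 14.9 and 9.67. All these values were above 1. Depth limits single pairs: at the leaf median of 16 contacts per interchromosomal pair, single bins with modest differences cannot be told apart.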
